A study of Cricetiscus sungorus with 24 samples.

Results

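Kidney RNA of Djungarian hamsters exposed to a short photoperiod for 28 weeks (SP28wk) was compared with that of hamsters kept in a long photoperiod (LP). The comparison took 8 of the 24 samples of the series, 4 a group, and its members were the 796 genes, of 9681 listed, that had at least 60 reads over the 12 samples of the same experiment. For a gene with several transcripts, the reads of the transcript with the highest total were taken, so that a read counted on several transcripts of a gene entered once. A read counted only on another transcript of the gene did not enter. All animals were adult males, and no treatment other than the photoperiod is named for them. LP animals had 16 h of light per day throughout. SP28wk animals were moved from LP to 8 h of light per day for 28 weeks. Another group, SP12wk, had the same short days for 12 weeks, was sequenced on the same flow cell, and is given only beside the other groups. Each library came from 1 animal, so that the spread between libraries holds both animal and library preparation.

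In this species, a short photoperiod lowers body mass, reproduction and pituitary prolactin, and kidney mass follows the season. Exposure that goes on for months ends in photorefractoriness, in which the long-day state returns by an internal timer although the days stay short. The comparison of SP28wk with LP therefore asks what in the kidney transcriptome differs between an animal that has turned refractory and one that stayed in long days. The tubule cells that make up most of the kidney burn large amounts of ATP to drive the sodium pump, and the proximal tubule is rich in mitochondria, in endocytic receptors and in enzymes that handle peptides, amino acids and peroxides.

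The reads were few. A library held between 15688 and 57585 reads on 1 transcript per gene, from 17830 to 25745 in LP and from 24102 to 57585 in SP28wk. A single read was worth 38.8 to 56.1 CPM (reads per 1000000 reads of the library) in LP and 17.4 to 41.5 CPM in SP28wk, and a gene without a read could have had up to 3 reads, worth 117 to 168 CPM in LP and 52.1 to 124 CPM in SP28wk. These limits cover counting error only. Library replicate 2 of LP stood apart from the others. Its Spearman correlations with the other 11 libraries over the members were between 0.18 and 0.639, whereas those among the other 11 were between 0.617 and 0.88, and 119 of the 796 members had no read in it. The scaling factor of edgeR's TMM method, by which library totals are corrected, was 1.41 in LP replicate 2 and 1.25 in LP replicate 3, against 0.944 and 0.983 in LP replicates 1 and 4 and 0.77 to 0.966 in SP28wk. The reads over all transcripts were 3.31 times those on 1 transcript per gene in LP replicate 2 and 2.90 times in LP replicate 3. In the other libraries they were 2.15 to 2.45 times. Values are therefore given with LP replicates 2 and 3 and, where a result rests on them, without LP replicate 2 and without LP replicates 2 and 3.

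The kidney label was borne out by the reads. Transcripts of megalin (Lrp2), the endocytic receptor of the proximal tubule, were present in all 8 libraries, at 847, 1346, 888 and 1049 CPM in LP and at 870, 954, 828 and 955 CPM in SP28wk. The water channel Aqp1 and myo-inositol oxygenase (Miox), an enzyme found mainly in kidney, also had over 60 reads. The 30 immune cell markers took 0% to 0.0117% of the reads in LP and 0.0158% to 0.0257% in SP28wk, with 14 of the 30 listed in the table. They were thus higher in every SP28wk library, at a level of a few reads, and their part in the results was not tested. The 13 adrenal markers took at most 0.0272% in any library of either group. Haemoglobin transcripts from residual blood took 2.7%, 2.21%, 1.42% and 2.89% of the reads in LP and 3.32%, 2.88%, 3.13% and 2.1% in SP28wk, so that the ranges overlapped.

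Few genes passed the test. Across the 5086 genes with a read in at least 4 of the 12 libraries, the quasi-likelihood test of edgeR called 11 genes higher in SP28wk at a Benjamini-Hochberg adjusted p under 0.05, or 0.216% of the genes tested, and called 0 genes lower, or 0%. Of the 11, 8 were members, or 1.01% of the 796. At an unadjusted p under 0.05, 336 genes were higher (6.61% of all tested) and 100 were lower (1.97%), and among the members 114 were higher (14.3%) and 7 were lower (0.879%). The median log2 fold change was 0.37 over the members and 0.18 over all genes tested, and 74.2% of the members lay above 0 against 58.5% of all genes tested. Members were chosen by raw reads, and most SP28wk libraries were deeper than those of LP, so genes high in SP28wk passed the limit more easily. The members' excess over all genes tested may come in part from that choice, which was not tested. The lean also moved with the scaling. Without TMM, 13 genes were called, 10 higher and 3 lower, 53 members were higher and 34 lower at an unadjusted p under 0.05, the median over all genes tested was -0.16 and 52.1% of the members lay above 0. The number of genes called was 0 when reads were summed over a gene's transcripts, 2 with DESeq2 and 30 with limma-voom.

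Single libraries moved these counts. Without LP replicate 4 the number of genes called was 52, of which 44 were members, and without SP28wk replicate 1 it was 27, of which 15 were members. The 114 members at an unadjusted p under 0.05 on the higher side became 50 without LP replicate 2, 67 without LP replicate 3, 69 without SP28wk replicate 3 and 63 without SP28wk replicate 4. The 7 on the lower side became 11 without LP replicate 1, 4 without LP replicate 3, 12 without LP replicate 4 and 3 without SP28wk replicate 2. Without LP replicates 2 and 3 together, 2 genes were called, and the median over the members, 0.11, was below that over all genes tested, 0.20.

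**Figure D1:**
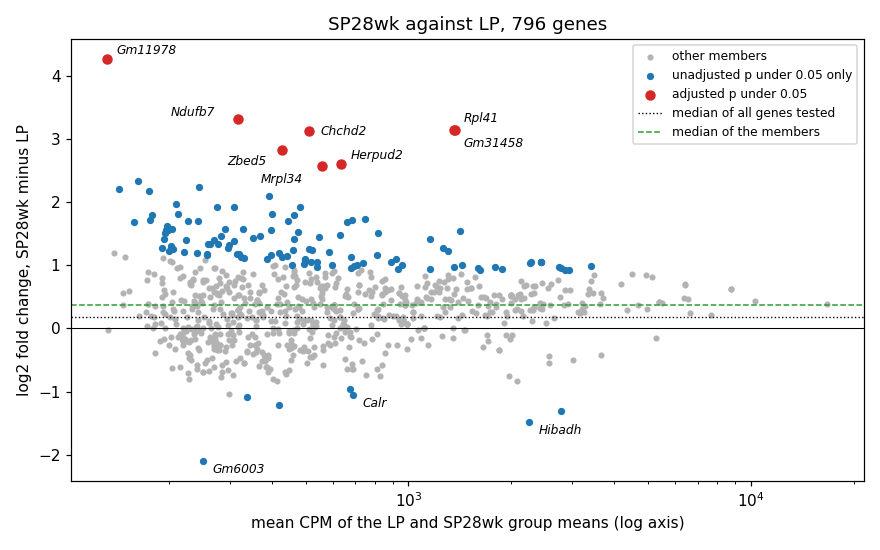
Log2 fold change (SP28wk minus LP, edgeR with TMM scaling) against the mean CPM of both groups on a log axis for the 796 members, 1 point per gene. The 8 members with an adjusted p under 0.05 lie at the top, between 2.57 and 4.27, and the members' median of 0.37 lies above the 0.18 of all genes tested.

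The 8 members called were Rpl41, Gm31458, Chchd2, Ndufb7, Herpud2, Zbed5, Mrpl34 and Gm11978. Some of them cannot be told apart as genes. Gm31458, a predicted gene, had 477 reads against the 479 of Rpl41, with equal numbers in 11 of the 12 libraries as its share of the Rpl41 reads was 100% in all but SP28wk replicate 3, where it was 98.5%. Zbed5 had as many reads as Chchd2 in every LP library and between 60% and 85.7% of them in SP28wk. Reads of Herpud2 were 42.6% to 45.4% of those of Rpl41 in the SP28wk libraries, and 38.5% to 300% in LP. The calls thus rest on fewer than 8 separate read patterns. Against the same LP libraries, their log2 fold changes in SP12wk ran from 0.56 to 3.91, beside 2.57 to 4.27 in SP28wk, and Chchd2 was the 1 gene called there, or 0.0197% of the genes tested (edgeR adjusted p = 0.0328). Between SP28wk and SP12wk themselves, edgeR called 3 of the 8, Rpl41, Gm31458 and Herpud2, against 7 genes or 0.138% of all tested. The log2 fold changes of the 8 (SP28wk minus SP12wk) ran from 0.33 to 2.05, with adjusted p between 0.0133 and 0.98. A difference between the short-day groups was therefore not shown for the other 5.

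Rpl41 (transcript NM_018860.4) encodes a very short, basic protein of the large ribosomal subunit. Its level was 612, 56.1, 55.5 and 544 CPM in LP replicates 1 to 4, and 830, 1577, 3885 and 3369 CPM in SP28wk replicates 1 to 4. The groups did not overlap, although the lowest SP28wk library lay close to the highest LP library. The log2 fold change was 3.15 ± 0.51 (SE, n = 4 a group), with an adjusted p of 1.71e-06 by edgeR. The call held in 18 of 19 alternative fits, with adjusted p between 1.1e-07 and 0.654, and was lost when reads were added over transcripts, where the log2 fold change was 2.99. Without LP replicates 2 and 3 the log2 fold change was 2.24 with an adjusted p of 0.000413. In SP12wk the levels were 695, 510, 1255 and 311 CPM. Whether fewer cells with the transcript or less of it in each cell lies behind a difference cannot be told apart in whole tissue, here or in the results that follow.

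Chchd2 encodes a small protein of the space between the mitochondrial membranes that binds cytochrome c oxidase. Its level was 47.0, 0, 0 and 388 CPM in LP and 395, 1162, 1314 and 799 CPM in SP28wk (log2 fold change 3.12 ± 0.57, SE; edgeR adjusted p = 7.2e-05). A single LP library, replicate 4, came close to the lowest SP28wk library, and the other LP libraries had 1 read or none. The SP12wk libraries were split in the same manner, with 0 and 0 CPM in replicates 1 and 2 and 1757 and 1046 CPM in replicates 3 and 4. Zbed5, a zinc finger gene, had 47.0, 0, 0 and 388 CPM in LP and 237, 996, 1114 and 642 CPM in SP28wk, so that its groups overlapped (2.83 ± 0.57; adjusted p = 0.000652). Across 19 alternative fits the adjusted p of Chchd2 ran from 1.41e-07 to 0.996, and that of Zbed5 from 6.02e-07 to 0.996, with 15 calls for each. The calls were lost with DESeq2, with reads added over transcripts, with the stricter filter on low counts, and without LP replicates 2 and 3, where the adjusted p was 0.104 and 0.61.

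Ndufb7 encodes an accessory subunit of respiratory complex I, and Mrpl34 a protein of the large subunit of the mitochondrial ribosome. Ndufb7 was at 47.0, 112, 0 and 116 CPM in LP and at 158, 539, 657 and 903 CPM in SP28wk. The LP range ended below the lowest SP28wk library, and the log2 fold change was 3.32 ± 0.63 (SE; edgeR adjusted p = 0.0002). Mrpl34 was at 141, 0, 277 and 311 CPM in LP and at 1028, 954, 1000 and 747 CPM in SP28wk (2.57 ± 0.54; adjusted p = 0.00148). Its lowest SP28wk library lay well above its highest LP library, and the SP12wk libraries, at 245, 1084, 1205 and 820 CPM, lay at both levels. Both calls were lost with DESeq2, with reads added over transcripts, and without LP replicates 2 and 3, where the log2 fold change was 2.88 (adjusted p = 0.0941) for Ndufb7 and 2.10 (adjusted p = 0.104) for Mrpl34. Over the 19 alternative fits the adjusted p ran from 4.32e-05 to 0.654 for Ndufb7 and from 0.000701 to 0.654 for Mrpl34.

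Herpud2 belongs to a family of membrane proteins with a ubiquitin-like domain, and Gm11978 is a predicted gene of noncoding RNA. Herpud2 was at 235, 168, 55.5 and 388 CPM in LP and at 356, 705, 1657 and 1528 CPM in SP28wk, so that LP replicate 4 lay above SP28wk replicate 1 (2.61 ± 0.52; adjusted p = 0.000637). Gm11978 stood exactly at the limit of 60 reads. It was at 0, 0, 0 and 38.8 CPM in LP, which is 1 read in all, and at 79.1, 332, 343 and 260 CPM in SP28wk (adjusted p = 0.00244). The SP12wk libraries had 327, 191, 452 and 226 CPM of Herpud2 and 0, 0, 502 and 339 CPM of Gm11978. Without LP replicates 2 and 3 the adjusted p was 0.161 for Herpud2 and 0.495 for Gm11978. Over the alternative fits it ran from 0.000148 to 0.654 and from 0.000807 to 0.713.

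**Figure D2:**
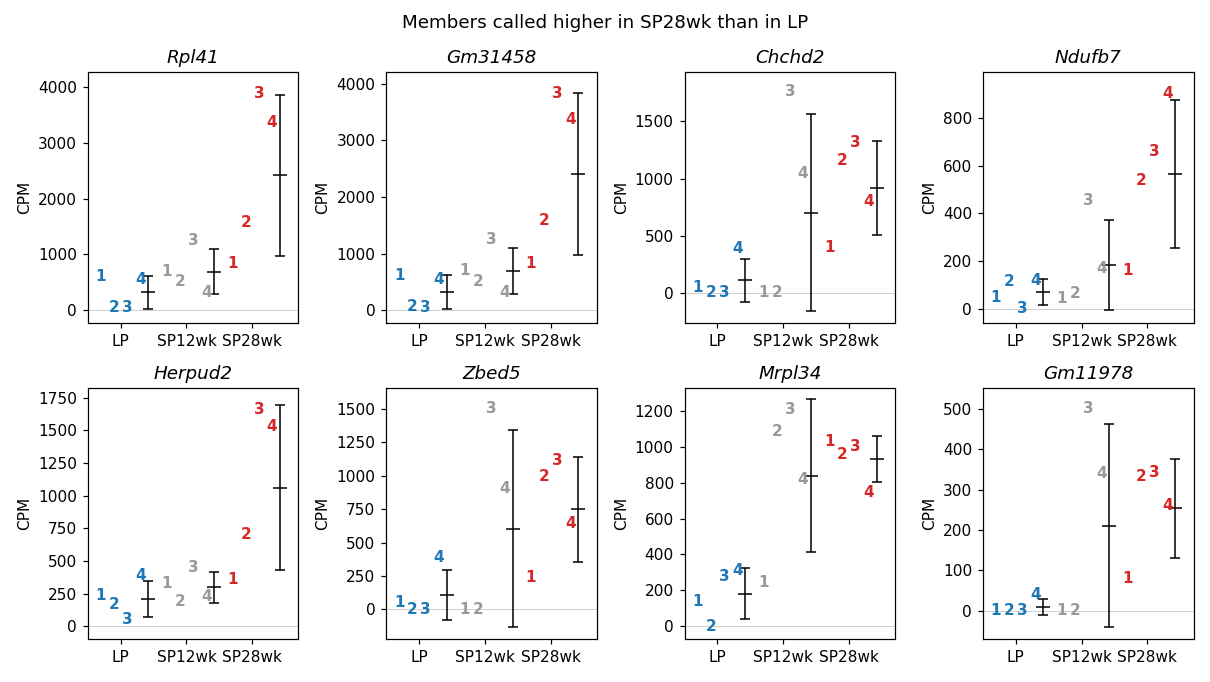
CPM of the 8 members with an adjusted p under 0.05 in LP, SP12wk and SP28wk, with each digit standing for the replicate of that number and the black marks for the mean and SD of 4 libraries. LP replicate 4 is the highest LP library of all but Rpl41 and Gm31458, and SP28wk replicate 1 is the lowest SP28wk library of all but Mrpl34.

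The 3 other genes called had fewer than 60 reads. Akr1b3, the aldose reductase that makes sorbitol as an osmolyte, was at 0, 0, 0 and 38.8 CPM in LP and at 0, 290, 428 and 122 CPM in SP28wk. Inmt, an indole methyltransferase, and Serhl, a serine hydrolase-like gene, had no read in LP. Against the limit of 3 reads over the LP group, 36.2 CPM, the pooled SP28wk level was at least 5.06-fold higher for Inmt (183 CPM). For Serhl (197 CPM) it was at least 5.45-fold higher. These bounds cover counting error in LP only and leave out the spread between animals. All 3 calls were lost with DESeq2, with reads added over transcripts and with the stricter filter on low counts. They were also lost without LP replicates 2 and 3.

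The other members of smallest p on the higher side were Rida, Pcbd1, Atp6v1f and Timm13, and none was called. Their log2 fold changes, in that order, were 2.09, 1.92, 2.24 and 1.735. They fell to 1.24, 1.11, 1.26 and 0.88 without LP replicates 2 and 3 (edgeR adjusted p = 0.953 for each). Rida, which clears reactive imine intermediates of amino acid breakdown, was at 0, 0, 111 and 544 CPM in LP and at 158, 747, 771 and 799 CPM in SP28wk (edgeR adjusted p = 0.0515). Pcbd1, which recycles the cofactor of phenylalanine hydroxylase, was at 141, 56.1, 111 and 583 CPM in LP and at 395, 788, 971 and 799 CPM in SP28wk (adjusted p = 0.0837). Both overlapped between the groups through LP replicate 4 and SP28wk replicate 1. Atp6v1f, a subunit of the proton pump of lysosomes and intercalated cells, was at 282, 0, 0 and 77.7 CPM in LP and at 435, 498, 428 and 226 CPM in SP28wk. Timm13, a chaperone of mitochondrial protein import, was at 423, 0, 222 and 893 CPM in LP and at 790, 830, 1314 and 1476 CPM in SP28wk, with an adjusted p of 0.106 for both. The two-sided exact permutation p of the mean CPM was 0.0571 for Rida, Pcbd1 and Atp6v1f and 0.0857 for Timm13, where 0.0286 is the smallest that 4 libraries a group allow. In SP12wk, replicates 1 and 2 had 40.9 and 0 CPM of Rida, and replicates 3 and 4 had 1355 and 989 CPM.

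No member was called lower. Some of the members of smallest p on that side were high in a pair of LP libraries, whereas Gm6003, the nearest to a call and given below, was not. Hibadh, an enzyme of valine breakdown in mitochondria, was at 1505, 6001, 5604 and 1282 CPM in LP and at 1028, 664, 1028 and 938 CPM in SP28wk. The groups did not overlap, but LP replicates 1 and 4 lay closer to the SP28wk libraries, whereas LP replicates 2 and 3 were several times higher. The log2 fold change was -1.48 ± 0.46 (SE; edgeR adjusted p = 0.176). Without LP replicates 2 and 3 its log2 fold change was -0.45. Aqp1 was at 706, 1458, 1665 and 155 CPM in LP and at 277, 456, 228 and 469 CPM in SP28wk, and its log2 fold change of -0.96 became -0.04.

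Other lower members kept more of their size without those libraries. Calr encodes calreticulin, the calcium-binding chaperone of the endoplasmic reticulum. It was at 1176, 1234, 999 and 660 CPM in LP and at 356, 373, 143 and 573 CPM in SP28wk, with no overlap. The log2 fold change was -1.05 ± 0.48 (SE; edgeR adjusted p = 0.538) with all libraries and -1.12 without LP replicates 2 and 3, and the exact permutation p was 0.0286. Gm6003, a predicted gene, was at 376, 393, 721 and 272 CPM in LP and at 39.5, 0, 85.7 and 122 CPM in SP28wk (-2.10 ± 0.61; adjusted p = 0.118), and -1.89 without those libraries. The alkaline phosphatase Alpl, an enzyme of the brush border, was at 564, 617, 1054 and 311 CPM in LP and at 198, 124, 314 and 174 CPM in SP28wk, with a log2 fold change of -1.21 that became -0.91. Its groups met at LP replicate 4 and SP28wk replicate 3. The SP12wk libraries were at 490, 382, 904 and 622 CPM for Calr and at 286, 128, 201 and 226 CPM for Alpl.

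The remaining lower members of smallest p were Prkar1a, Etnk1, Nme7, Kalrn, Eif4h and Zfp933, with unadjusted p between 0.0439 and 0.113. Prkar1a encodes a regulatory subunit of the cAMP-dependent protein kinase, Etnk1 ethanolamine kinase, and Eif4h a cofactor of the helicase that unwinds mRNA for translation. Kalrn, a guanine nucleotide exchange factor known best from neurons, was at 1270, 4487, 3329 and 1864 CPM in LP and at 1700, 1079, 828 and 1181 CPM in SP28wk. Nme7, a nucleoside diphosphate kinase family member, was at 1552, 4767, 4217 and 1243 CPM in LP and at 1581, 747, 1400 and 1111 CPM in SP28wk. LP replicates 2 and 3 were the 2 highest LP libraries of all 6 genes. Zfp933, a zinc finger gene, had 2748 CPM in LP replicate 2 against 423 to 1054 CPM in the other LP libraries, and its log2 fold change of -0.75 became -0.14 without LP replicate 2 and 0.32 without LP replicates 2 and 3.

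**Figure D3:**
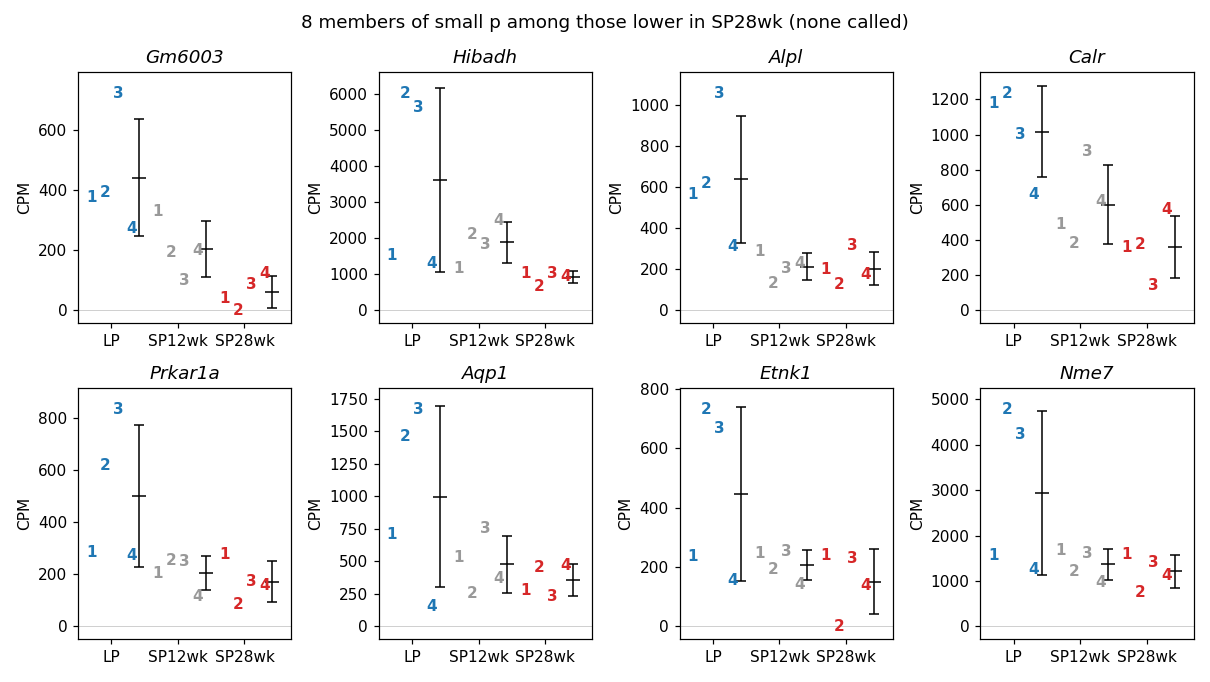
CPM of 8 members of small p among those lower in SP28wk, none of which passed the test, with digits for replicates and black marks for the mean and SD of 4 libraries. LP replicates 2 and 3 stand well above LP replicates 1 and 4 for Hibadh, Prkar1a, Aqp1, Etnk1 and Nme7, whereas all 4 LP libraries of Calr and Gm6003 lie above all 4 of SP28wk.

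Groups of CPM that did not overlap did not show the same lean over all genes. The choice of members by raw reads bears on the members' shares here too. Among the members, 23 (2.89%) lay higher in every SP28wk library than in every LP library and 10 (1.26%) lay lower, against 1.57% and 1.73% of all genes tested. Leaving out a library loosens this criterion, and the shares rose to 5.9% and 4.77% without LP replicate 1, to 10.4% and 5.65% without LP replicate 4 and to 7.79% and 3.64% without SP28wk replicate 1, on the higher and lower side. On the lower side the share was 2.01% without LP replicate 3 and 3.64% without SP28wk replicate 4. Beside the 6 called members without overlap, the higher ones with a known role were subunits of complex I (Ndufb6, Ndufs3) and of the ATP synthase (Atp5o), the copper chaperone of cytochrome oxidase Cox17, the antioxidant enzymes Sod1 and Prdx5, the ribosomal proteins Rpl15 and Rpl39, Mrpl23, the acetyltransferase Nat8f1, the prefoldin subunit Pfdn5, the protease inhibitor Cstb, Bola2 and Fam32a. They are named after their values were seen. Rpl15 was at 612, 505, 555 and 466 CPM in LP and at 672, 996, 886 and 747 CPM in SP28wk. Cox17 was at 235, 168, 388 and 544 CPM in LP and at 988, 705, 657 and 695 CPM in SP28wk.

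Among the lower ones without overlap were Calr, Gm6003, Hibadh, Gm38733, Ndrg1, Pdia3, Rack1, Tacc2 and Tubb4b. Pdia3, which works with calreticulin in folding glycoproteins, was at 376, 729, 610 and 388 CPM in LP and at 316, 124, 200 and 347 CPM in SP28wk. Rack1, a scaffold on the small ribosomal subunit, was at 564, 617, 666 and 544 CPM in LP and at 395, 498, 457 and 521 CPM in SP28wk. CPM is not corrected by TMM, and the fitted log2 fold change was -0.61 for Pdia3 and 0.03 for Rack1. With TMM-scaled CPM the shares without overlap were 4.77% higher and 0.251% lower.

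The lists of genes that follow were chosen with earlier results of these data known and are described by counts and medians, each as the difference from the median of all genes tested (0.18). The median over all members was 0.37, so that lists of members tend to lie above 0 on this measure. The list medians themselves were 0.98 for antioxidant enzymes, 0.71 for complex I and 0.60 for ribosomal proteins. They were 0.42 for complexes II to V and 0.30 for the citrate cycle list, near or below that of all members. Of 19 lists with at least 3 members, 12 had a median above that of all genes tested, and 8 did so without LP replicates 2 and 3. For the 29 members of respiratory complex I, the first enzyme of the respiratory chain, the median was 0.54 above that of all genes tested. All 29 had a log2 fold change above 0, 11 had an unadjusted p under 0.05 (37.9%, against 14.3% of all members), and 1 (Ndufb7) was called. Ndufa4 had 4704, 729, 2830 and 3457 CPM in LP and 3992, 3693, 3485 and 4081 CPM in SP28wk. LP replicate 2 was far below the other libraries, and the fitted log2 fold change of 0.63 became 0.24 without it. Ndufa3 and Ndufa6 were likewise lowest in LP replicate 2, with 336 and 954 CPM. The list's median difference was 0.31 without LP replicate 2 and 0.05 without LP replicates 2 and 3. The share of all reads on complex I genes was 2.73%, 0.763%, 1.66% and 2.15% in LP and 2.61%, 2.52%, 2.39% and 2.47% in SP28wk. LP replicate 1 was thus above every SP28wk library.

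For the 37 members of complexes II to V, which pass electrons to oxygen and make ATP, the median difference was 0.24, with 6 at an unadjusted p under 0.05 on the higher side, or 16.2% of the list against 14.3% of all members, and none on the lower. It was 0.02 without LP replicate 2 and -0.11 without LP replicates 2 and 3. Cox7c, a subunit of cytochrome oxidase whose reads were shared with its pseudogene copies, was at 8091, 1514, 3773 and 6797 CPM in LP and at 6363, 5809, 5542 and 5418 CPM in SP28wk. Atp5md and Atp5l, small subunits of the ATP synthase, were at 897 and 1458 CPM in LP replicate 2, against 2774 to 7103 CPM in the other LP libraries.

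The 80 members that encode cytosolic ribosomal proteins had a median difference of 0.43, and 79 of them had a log2 fold change above 0. An unadjusted p under 0.05 was found for 14, all higher, which is 17.5% of the list against 14.3% of all members, and Rpl41 was called. The most abundant, Rps27, was at 10110, 3758, 6104 and 10640 CPM in LP and at 10390, 9294, 10200 and 9742 CPM in SP28wk, and could not be told apart from Rps27rt. Rps29 was at 11990 CPM in LP replicate 1 and 2468 CPM in LP replicate 2, which enclosed the SP28wk range of 5974 to 8141 CPM. Fau, a fusion of a ubiquitin-like protein with a ribosomal protein, had no read in LP replicate 2 and 1443 to 3379 CPM in the other LP libraries, against 3257 to 3636 CPM in SP28wk. The list's median difference was 0.22 without LP replicate 2 and -0.10 without LP replicates 2 and 3. Ribosomal protein genes took 16.0%, 7.39%, 12.0% and 18.5% of the reads in LP and 14.4%, 16.5%, 17.8% and 17.2% in SP28wk. What set LP replicates 2 and 3 apart, in the animal or in the library, was not tested.

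**Figure D4:**
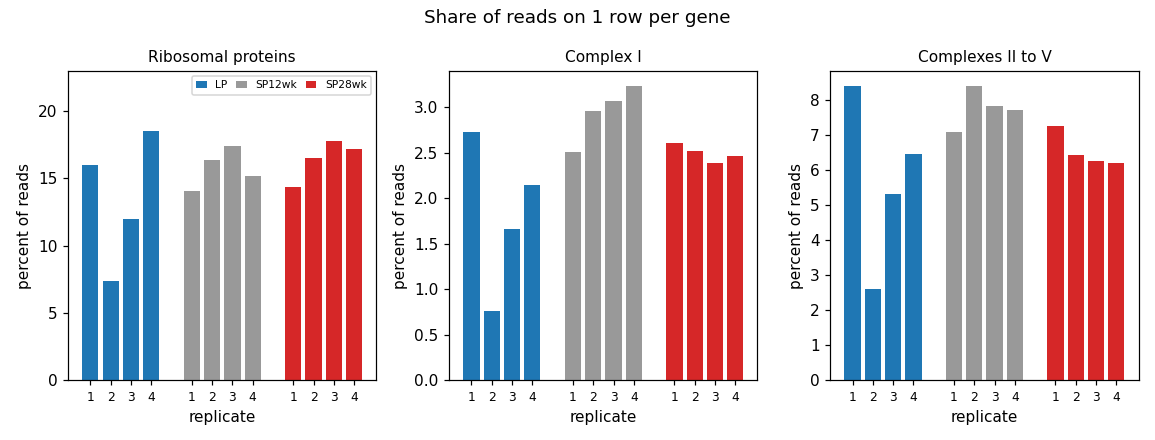
Percent of the reads of each library, counted on 1 transcript per gene, that fell on ribosomal protein genes, on respiratory complex I, and on complexes II to V, 1 bar per library. LP replicate 2 is lowest for all 3 lists (7.39%, 0.763% and 2.62%).

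Genes for glutathione and antioxidant enzymes had the highest median of the lists with at least 3 members. For the 17 members the difference from all genes tested was 0.81, with 16 above 0 and 9 at an unadjusted p under 0.05 (52.9%, against 14.3% of all members), none of them called. The difference was 0.60 without LP replicate 2 and 0.27 without LP replicates 2 and 3. Sod1, the cytosolic superoxide dismutase, was at 470, 112, 610 and 738 CPM in LP and at 870, 1162, 1600 and 955 CPM in SP28wk (1.51 ± 0.48; edgeR adjusted p = 0.219). The groups did not overlap, and without LP replicates 2 and 3 the log2 fold change was 1.03. Gpx4, the peroxidase that reduces lipid peroxides in membranes, was at 282, 168, 333 and 660 CPM in LP and at 395, 1120, 1428 and 903 CPM in SP28wk, with overlap. Gpx3, the secreted peroxidase made by the proximal tubule, was at 7573, 785, 1276 and 4428 CPM in LP and at 4308, 5643, 3057 and 8874 CPM in SP28wk. Its LP range covered most of the SP28wk range.

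Selenop encodes the plasma carrier of selenium, the element that Gpx3 and Gpx4 hold. It was at 4233, 1795, 1498 and 2641 CPM in LP and at 7272, 3029, 3514 and 3317 CPM in SP28wk (0.98 ± 0.46; edgeR adjusted p = 0.538). In SP12wk it was at 1512, 1849, 1155 and 1809 CPM, below every SP28wk library. Fth1, the heavy chain of the iron store ferritin, was at 4375, 8805, 7380 and 4622 CPM in LP and at 4585, 3693, 4228 and 4585 CPM in SP28wk, with a log2 fold change of -0.15. Gsta1, a glutathione transferase, was at 1364, 280, 666 and 777 CPM in LP and at 1028, 747, 971 and 1146 CPM in SP28wk.

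No member among the metabolic enzymes outside the respiratory chain was called, although Akr1b3, which is below 60 reads, stands on the first of these lists and was. The median difference was 0.56 for 5 members among cytochrome P450 and conjugation enzymes, 0.34 for 6 of fatty acid, ketone and peroxisome metabolism, 0.23 for 10 of amino acid, creatine and one-carbon metabolism and 0.12 for 9 of the citrate cycle, glycolysis and gluconeogenesis. Each list had 1 member at an unadjusted p under 0.05 on the higher side, while Hibadh in the amino acid list had one on the lower side. Nat8f1 was at 282, 0, 277 and 388 CPM in LP and at 395, 581, 971 and 660 CPM in SP28wk. Akr1a1, an aldehyde reductase, had 932 to 1665 CPM in LP and 972 to 1660 CPM in SP28wk. Cyb5a, an electron donor of P450 enzymes, had 336 to 699 CPM in LP and 290 to 1086 CPM in SP28wk.

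Single genes of fat and sugar metabolism overlapped between the groups. The fatty acid binding protein Fabp3 was at 329, 56.1, 277 and 544 CPM in LP and at 514, 705, 686 and 556 CPM in SP28wk. Etfb, which hands electrons from fatty acid oxidation to the respiratory chain, had 272 to 499 CPM in LP and 417 to 747 CPM in SP28wk. Acsl1, which activates fatty acids, had 555 to 785 CPM in LP and 290 to 672 CPM in SP28wk. Miox had no read in LP replicate 2, 753 to 1609 CPM in the other LP libraries and 632 to 1216 CPM in SP28wk. Of the citrate cycle and glycolysis, Aldoa had 427 to 1720 CPM in LP and 543 to 913 CPM in SP28wk, Suclg1 had 505 to 1234 against 498 to 711 CPM, and the succinate dehydrogenase subunit Sdhc had 94.1 to 617 against 347 to 581 CPM. The ranges of all 7 overlapped, those of Fabp3 only between LP replicate 4 and SP28wk replicate 1.

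Other lists had a median below that of all genes tested. The differences were -0.36 for 18 translation factors, -0.32 for 5 members of the sodium pump and calcium list, -0.24 for 14 chaperones and -0.21 for 18 cytoskeleton and adhesion genes. The translation factors changed side without LP replicates 2 and 3, at 0.15, and the chaperones were then at -0.03. The cytoskeleton list stayed at -0.17 and the sodium pump and calcium list at -0.29. Eef1a1, the factor that brings aminoacyl-tRNA to the ribosome, was at 2728, 6842, 5604 and 3535 CPM in LP and at 3478, 2572, 2142 and 2362 CPM in SP28wk. Eif5a had 116 to 1683 CPM in LP and 314 to 581 CPM in SP28wk, and Tpt1 had 1599 to 3590 against 1660 to 2371 CPM. Atp1b1, the beta subunit of the sodium pump, was at 1552, 4655, 4994 and 2486 CPM in LP and at 1937, 1452, 1600 and 1928 CPM in SP28wk. Without LP replicates 2 and 3 its log2 fold change of -0.54 became -0.10. Calm2, a calmodulin gene, had 423 to 888 CPM in LP and 428 to 664 CPM in SP28wk.

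Among the chaperones, Hspa8 was at 4045, 4094, 3551 and 1321 CPM in LP and at 2885, 2116, 1314 and 1285 CPM in SP28wk, Ppia had 1458 to 2663 against 1818 to 3114 CPM, and Hspe1 had 505 to 2352 against 1423 to 1858 CPM. Of the cytoskeleton, Actb was at 2399, 2692, 1554 and 1515 CPM in LP and at 1304, 1203, 1457 and 1528 CPM in SP28wk. Actg1 had 2941 to 4150 against 2200 to 3755 CPM, and the myosin light chain Myl6 had 0 to 544 against 428 to 799 CPM. Proteasome and ubiquitin genes (10 members) and V-ATPase and lysosome genes (10 members) lay at -0.01 and -0.05 from the median of all genes tested. Among them Rps27a, Cd63, Lamp1 and Atp6v0c had log2 fold changes between -0.46 and 0.54 and adjusted p of at least 0.825.

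Tubule cell genes gave no call in either direction. The 48 genes of proximal tubule transport had 2 members, Aqp1 and the bicarbonate transporter Slc4a4, and took 0.233% to 0.355% of the reads in LP and 0.195% to 0.281% in SP28wk. The 5 members of the brush border and endocytosis list had a median at that of all genes tested. Of these members 4 lay above 0, and 2 had an unadjusted edgeR p under 0.05 on the higher side (40%, against 14.3% of all members). Besides Lrp2 and Rida the members held Pdzk1ip1, a small membrane protein of the proximal tubule, at 188, 0, 55.5 and 622 CPM in LP and at 593, 871, 971 and 399 CPM in SP28wk (edgeR adjusted p = 0.118). Over the 18 genes of this list that were tested, the median difference was 0.45, and 0.05 without LP replicates 2 and 3. The thick limb and distal tubule list, the collecting duct list and the glomerulus and endothelium list had 1, 1 and 2 members, and their shares of reads were 0.0583% to 0.216%, 0.0753% to 0.101% and 0.0376% to 0.123% in LP and 0.0622% to 0.106%, 0.0788% to 0.083% and 0.056% to 0.0914% in SP28wk. All 3 overlapped between the groups. Adipose markers had 1 member, the gluconeogenic enzyme Pck1, and took 0.0564% to 0.133% in LP and 0.0356% to 0.0622% in SP28wk.

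Markers of tubule injury had a median difference of 0.53 over 5 members, 0.32 without LP replicate 2 and 0.13 without LP replicates 2 and 3. Tmsb10, a thymosin that binds actin monomers, was at 282, 505, 166 and 233 CPM in LP and at 277, 913, 743 and 677 CPM in SP28wk (1.52 ± 0.51; edgeR adjusted p = 0.296). S100a6, a calcium-binding protein, was at 3199, 1010, 3773 and 6021 CPM in LP and at 5454, 5186, 4913 and 3786 CPM in SP28wk, and Tmsb4x had 706 to 2991 against 1897 to 2780 CPM. The SP12wk libraries of S100a6 were at 1962, 2996, 2811 and 1865 CPM. The 5 matrix members had a median difference of 0.17, with Igfbp7 at 1082 to 3329 CPM in LP and 1079 to 1897 CPM in SP28wk, Mgp, an inhibitor of calcification, at 0 to 505 against 399 to 871 CPM, and Ccn2 at 141 to 897 against 373 to 672 CPM. The 4 haemoglobin members had a median difference of 0.41, or -0.03 without LP replicates 2 and 3. Hba-a1 was at 6632, 9254, 3440 and 5593 CPM in LP and at 9209, 6763, 7084 and 4376 CPM in SP28wk, and Hbb-bs at 7009, 1963, 3718 and 8856 against 7510, 7593, 8598 and 6200 CPM. Hba-a2 and Hbb-bt followed their partner genes.

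Hormone and clock genes were too low to be members. Of the 36 genes of prolactin and photoperiod hormone signalling, of the 24 clock genes and of the 26 androgen-responsive kidney genes, none had 60 reads. Their summed shares were 0.0706% to 0.208%, 0.0517% to 0.157% and 0.0155% to 0.0337% of the reads in LP and 0.0747% to 0.126%, 0.0373% to 0.079% and 0.0474% to 0.0714% in SP28wk. The androgen-responsive list, of which 14 of 26 genes were listed, was higher in every SP28wk library than in every LP library, but it holds the called gene Inmt. Without Inmt, a step taken after seeing the data, the groups overlapped, at 0.0155% to 0.0337% in LP and 0.0249% to 0.0435% in SP28wk. The SP12wk libraries lay between 0.0123% and 0.1% with Inmt. Immediate early genes, which follow handling and time of tissue collection, had 1 member, Zfp36l1, and took 0.103% to 0.191% in LP and 0.083% to 0.133% in SP28wk.

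Of the genes that the study plotted for this experiment, 4 were members. Slc25a5, the adenine nucleotide carrier of the inner mitochondrial membrane, was at 1740, 2580, 2386 and 1204 CPM in LP, at 1267, 1020, 1054 and 1187 CPM in SP12wk and at 1897, 1452, 1171 and 1163 CPM in SP28wk (SP28wk minus LP, log2 fold change -0.10 ± 0.45, SE; edgeR adjusted p = 0.961). Slc52a2, a riboflavin transporter, was at 47.0, 449, 888 and 194 CPM in LP, at 572, 0, 0 and 84.8 CPM in SP12wk and at 553, 664, 486 and 122 CPM in SP28wk (0.57 ± 0.52; adjusted p = 0.875). Dad1, a subunit of the enzyme that attaches N-glycans, was at 235, 0, 111 and 233 CPM in LP, at 164, 319, 351 and 509 CPM in SP12wk and at 39.5, 124, 228 and 86.8 CPM in SP28wk (-0.03 ± 0.67; adjusted p = 0.995). For Gsta1, given above, the log2 fold change was 0.61 ± 0.47. The study chose these genes on the same samples.

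None of the 10 most abundant members passed the test. Gm20594, a predicted gene, was at 11900, 26250, 12490 and 16550 CPM in LP and at 16720, 20750, 14430 and 15180 CPM in SP28wk. Rn4.5s, a small noncoding RNA, was at 13170, 16550, 7269 and 3185 CPM in LP and at 13600, 18130, 3028 and 7415 CPM in SP28wk, and the predicted gene Gm40367 followed a like order, with 2680 to 13120 CPM in LP and 2771 to 13030 CPM in SP28wk. The 10 most abundant members also held the 4 haemoglobin genes and Rps27, Rps27rt and Rps29. Their log2 fold changes were between 0.21 and 0.70 and their adjusted p at least 0.77.

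The tightest statement of no change was for Tuba4a, an alpha tubulin, with a log2 fold change of 0.00 and a 95% interval from -0.84 to 0.85. It was followed by Gm7429, which shares its reads with the ribosomal protein gene Rpl30 (0.00, from -0.87 to 0.87), and by Gm21571, Rps12-ps11, Rps12-ps13 and Rps12-ps15, which have the same reads (0.01, from -0.88 to 0.89). For 36 of the 796 members the interval stayed within a log2 fold change of 1 on either side of 0. The median SE over the members was 0.50, and the median half-width of the interval was worth 1.96-fold, without adjustment for the number of genes tested. A call took more than that. The smallest log2 fold change called among the members was 2.57, and Rida at 2.09 and Atp6v1f at 2.24 were not called. Changes of 1.96-fold or less were thus not detectable for most members at this depth. At the limit of 60 reads stood 17 genes, among them Smim4, with 56.1 to 282 CPM in LP and 0 to 286 CPM in SP28wk. Rbbp4, a histone-binding protein with 59 reads, was just outside, with 141 to 388 CPM in LP and 104 to 237 CPM in SP28wk.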

How the data were processed

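Kidney RNA of 12 male hamsters was sequenced as nanopore cDNA on 1 flow cell. The authors basecalled with Guppy, trimmed with Porechop, filtered with Filtlong, aligned to the mouse genome with Minimap2, and deposited an estimated count per mouse RefSeq transcript (36662 transcripts, 9681 genes), not normalized. The submitters' processing notes also name Salmon. Hamster reads are thus named by mouse genes, and genes with like sequence share reads: 138 members had another gene whose counts differed by at most 5%. The methods name a direct cDNA kit and the labels a PCR-cDNA kit. All 12 value columns were used; of 439944 values, 2868 were not whole numbers. Experiment 2 was not analysed here.

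The transcript with the highest total was taken per gene, and CPM was its count over the library's sum of such counts. Counts were rounded and fitted with edgeR 4.0.16 (R 4.3.3), TMM scaling, the quasi-likelihood test, all 12 libraries and no covariate, keeping genes seen in at least 4 libraries. Standard errors are the log2 fold change over the square root of F. Exact permutation tests of mean CPM were two-sided. The comparison of SP28wk with SP12wk was added after seeing the data. Alternatives used DESeq2 1.42.0 and limma-voom 3.58.1. The scripts were tested on simulated data. The 18 pairs of libraries of a group differed beyond sampling noise, with a chi-square of 1.96 to 10.3 for each degree of freedom.

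Members and the 30 gene lists were chosen with earlier results of these data known. Genes named were the 12 of smallest p in each direction, the 10 most abundant, the 6 whose interval reached least far from 0, the 3 with most reads of each list with at least 3 members, those the study plotted, and those on either side of 60 reads. Of the genes so chosen, 2 are not reported here. Names beyond these follow from their values.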

Additional observations from a re-analysis of the deposited data

Results flagged for a closer look

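In 8 of the 190 groups of 4 libraries examined, 1 library lay farther from the others than Dixon's 95% limit allows. Chance alone marks about 1 in 20 groups, so the number flagged is no more than chance gives. In LP, replicate 4 was high for Chchd2 and Zbed5 (388.4 CPM each against 0 to 47.0 CPM in the other LP libraries), which share reads, for Gm11978 (38.84 CPM, a single read, against 0) and for Pcbd1 (582.6 CPM against 56.1 to 141 CPM). With the other LP libraries at 0, any read of Gm11978 would have been flagged. LP replicate 4 was low for Atp6v0c (505 CPM against 706 to 729 CPM). LP replicate 1 was low for Sdhc (94.08 CPM against 583 to 617 CPM). In SP28wk, replicate 1 was low for Rida (158.1 CPM against 747 to 799 CPM) and high for Selenop (7272 CPM against 3029 to 3514 CPM).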

How the results depend on the processing

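The 11 genes called, 8 of them members, beside 114 members higher and 7 lower at an unadjusted p under 0.05, stayed within 1.5 times with the size factors of DESeq2, without a filter and with only the 8 libraries of the comparison, except where given here. With reads added over transcripts, 0 genes were called (370 at an unadjusted p under 0.05), and 10 members were higher and 7 lower at an unadjusted p under 0.05. Rpl41 lists 1 transcript and had the same reads in both fits, and the cause of its lost call was not tested. Without scaling, 13 genes were called, 10 higher and 3 lower, with 53 members higher and 34 lower. With a count required in 8 of 12 libraries, 5 genes were called, all members, with 62 members higher and 11 lower. DESeq2 called 2 genes, both members, with 38 higher and 14 lower, and limma-voom called 30, of which 23 were members, with 206 higher. Leaving out 1 library at a time gave 10 to 52 genes called, 8 to 44 members called, 50 to 170 members higher, 3 to 12 lower, 3.14% to 10.4% of members without overlap on the higher side and 1.63% to 5.65% on the lower. Without LP replicates 2 and 3, a choice made after seeing the data, 2 genes were called, both members, with 37 members higher and 3 lower, and 6.53% of members had no overlap on either side. The log2 fold change of Zfp933 then turned to 0.32. With TMM-scaled CPM, 4.77% of members had no overlap on the higher side and 0.251% on the lower, and with the size factors of DESeq2 the lower share was 0.251%. Of 19 lists, 12 had a median above that of all genes tested, 11 to 14 with 1 library left out and 8 without LP replicates 2 and 3. With 1 gene kept of those with the same counts, also chosen after seeing the data, 13 genes were called.

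The replicate number as a block gave 12 genes called, 10 of them members, and added Pcbd1 and Rida to the members called. No pairing of samples by number is named in the labels or the methods. The deviations of same-numbered LP and SP28wk libraries correlated at -0.08, -0.18, 0.01 and 0.07, which cannot by itself show that nothing was shared between them.

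The depth limits what could be seen, with 1 read worth up to 56.1 CPM in LP. The median SE of a member was 0.50 on the log2 scale. Genes under 60 reads are named only where they were called or stood at the limit.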

Other observations

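Small noncoding RNAs are also among the members, named here after their values were seen. Snora73a and Snora73b, small RNAs of the nucleolus that take part in ribosomal RNA maturation, were high in some SP28wk libraries. Snora73b was at 894, 561, 388 and 1515 CPM in LP, at 123, 382, 301 and 396 CPM in SP12wk and at 514, 1660, 3199 and 2587 CPM in SP28wk. The LP and SP28wk groups overlapped, and the log2 fold change of 1.54 ± 0.46 (SE) had an edgeR adjusted p of 0.135, between 0.00855 and 0.996 over the alternative fits. Against SP12wk, a comparison added after seeing the data, Snora73a and Snora73b were among the 7 genes called higher in SP28wk (0.138% of all tested). Snora73a was at 847, 449, 277 and 1321 CPM in LP and at 435, 1286, 2571 and 2084 CPM in SP28wk, with the same order of libraries in SP28wk. Snord3a, the U3 RNA of ribosomal RNA processing, was at 941, 2187, 666 and 1321 CPM in LP and at 1383, 1286, 1285 and 1424 CPM in SP28wk. The spliceosomal RNAs Rnu1a1 and Rnu2-10 had log2 fold changes of 0.37 and 0.07, neither past the test (edgeR adjusted p = 0.906 and 0.965), and other listed genes have nearly the same counts as each.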
